A study of Homo sapiens with 6 samples.

Results

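Mitochondrial ribosomal protein genes were taken from the expression table of U251 cells, a human glioblastoma line, by their symbols: MRPS or MRPL, a number and an optional A or B. Of 23002 genes in the table, 77 matched, 28 with an MRPS symbol (named for the small subunit) and 49 with an MRPL symbol (named for the large subunit). Libraries were made from total RNA of U251 cells carrying a control hairpin (sh-NC, 3 libraries) or a hairpin against TRAF2 (sh-TRAF2, 3 libraries), an adaptor protein of TNF receptors with a ubiquitin ligase domain. The hairpins were expressed from lentiviral vectors in cultures kept under puromycin selection, no TNF-α treatment was stated for these 6 libraries, and which of the study's TRAF2 hairpins was sequenced was not stated. Nothing in the labels says that libraries of a group came from separately infected cells, so the p-values measure the spread between these libraries, which may be technical.

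The mitochondrial ribosome translates the few messages encoded in mitochondrial DNA, all of which are subunits of the respiratory chain and ATP synthase. Its RNAs are encoded in mitochondrial DNA, whereas its proteins are made in the cytosol from nuclear genes and imported, so both genomes contribute to each particle. The small subunit reads the message, the large subunit joins amino acids, and beside proteins inherited from a bacterial ancestor each subunit holds proteins found in mitochondria only. Dividing cells, tumour cells included, express these genes broadly.

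The libraries held 33999558 to 36823562 reads on genes, recovered from the steps of the FPKM values (fragments per kilobase of gene and per fixed number of mapped fragments). TRAF2, the knocked-down gene, had FPKM values of 15.1, 18.4 and 15.3 in the sh-NC libraries against 3.26, 3.22 and 3.33 in the sh-TRAF2 libraries, a log2 fold change of -2.27 (SE 0.0791, adjusted p = 1.16e-06 in limma) in the direction of the labels. Of 12 glial or mesenchymal markers, VIM (1208 to 1284 in sh-NC), CD44, TNC, SOX2 and SOX9 were expressed, S100B was at or near 0 and GFAP ranged from 0.334 to 1.62. FABP7 was low (0.412 to 1.02 FPKM) and CHI3L1 was absent from the expression table. At an adjusted p under 0.05 in limma, 3 of 10 tested were higher (30%) and 2 lower (20%), against 23.7 and 20.9 percent of all genes tested. Mean FPKM of NES rose from 5.35 to 11.7 and of VIM from 1242 to 1582, whereas that of EGFR fell from 31.8 to 14.3. Of 12 markers of immune, endothelial, epithelial, neuronal, oligodendrocyte and muscle cells, 9 were under the expression minimum of the test, among them PTPRC, PECAM1, RBFOX3 and MBP, while CD68, KRT18 and ACTA2 were above it. KRT18 rose from 17.7 ± 1.22 to 27.2 ± 0.655 FPKM (SD, n = 3) and ACTA2 from 6.26 ± 0.528 to 8.03 ± 0.992. The part of any of these marker shifts in the results for ribosomal proteins was not tested. In such bulk cultures, fewer cells of a type and less RNA per cell cannot be told apart.

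Most mitochondrial ribosomal protein genes changed little, and those that changed rose more often than they fell. Of the 76 members with a mean FPKM of at least 0.5, 28 were higher in sh-TRAF2 (36.8%) and 7 were lower (9.21%) at an adjusted p under 0.05 in limma with Benjamini-Hochberg adjustment over all 11870 genes tested. Over all genes tested, 23.7 percent were higher and 20.9 percent were lower. The median log2 fold change of the members was 0.09, against 0.02 for all genes tested, and the middle part of the members was narrower: its interquartile range spanned 0.18 against 0.37 on the log2 scale. The members also had higher levels (median of mean FPKM 24.6 against 7.67), and comparisons with all genes took no account of level. The count of higher members was 19, 31 and 18 without sh-NC replicate 1, 2 and 3, and 20, 19 and 20 without sh-TRAF2 replicate 1, 2 and 3. The count of lower members ran from 6 to 7 when any 1 library was left out.

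**Figure D1:**
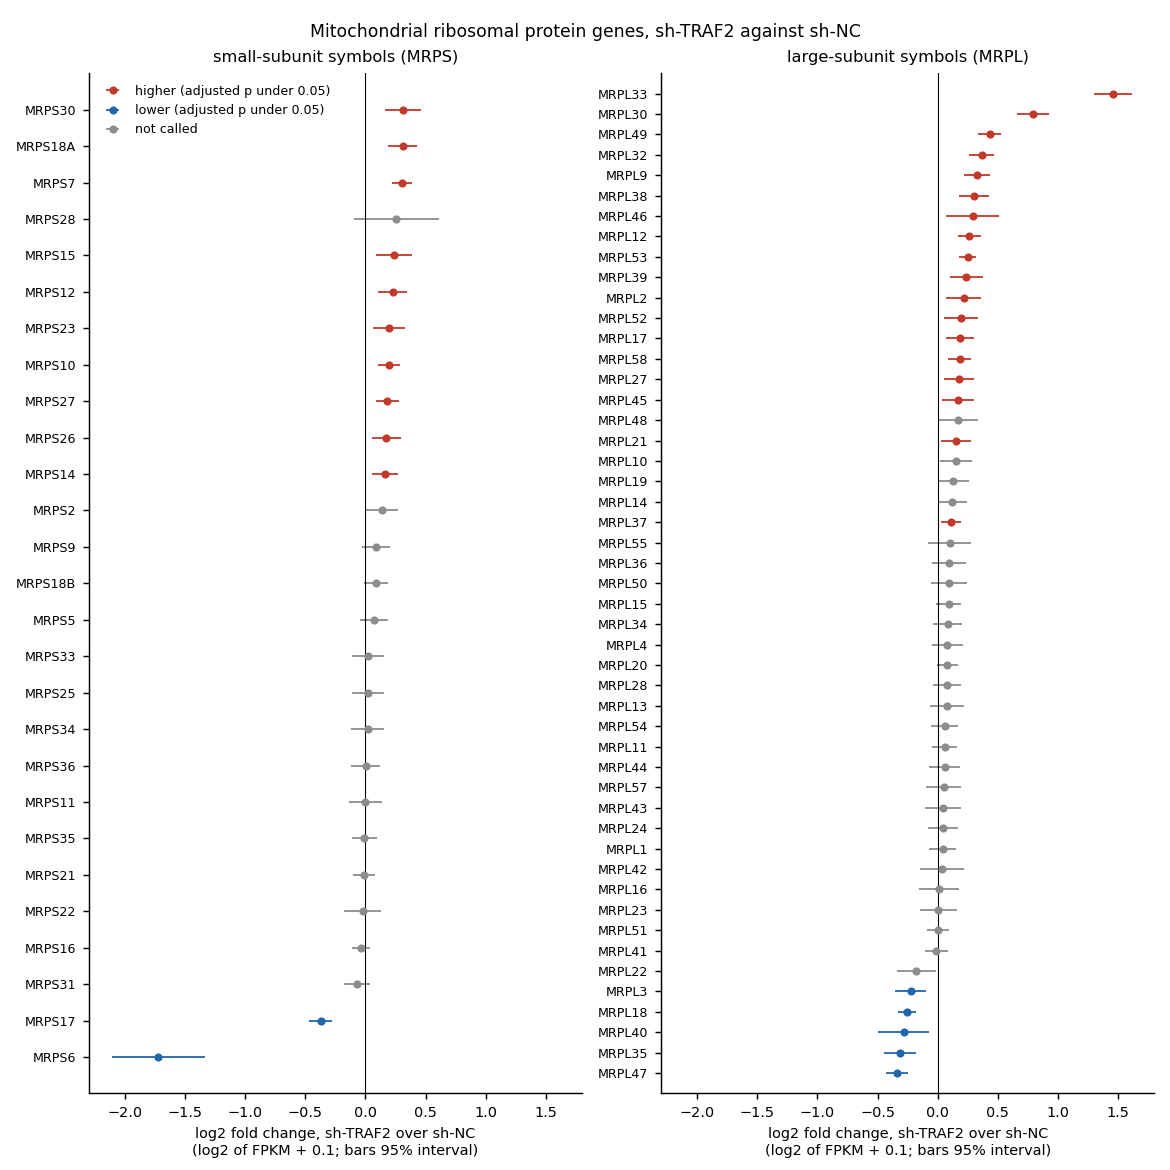
Log2 fold change of each of the 76 tested members, MRPS genes on the left and MRPL genes on the right, with 95% confidence intervals from limma. Colours mark the 28 higher, 7 lower and 41 uncalled genes. MRPS6 at -1.72 and MRPL33 at 1.46 lie apart, and most of the rest sit just above 0.

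Separation of the libraries, counted without a model, gave a like picture. All sh-TRAF2 libraries lay above all sh-NC libraries for 32 members (42.1%), where 29 percent of all genes tested did so, and all lay below for 7 members (9.21%), where 26.5 percent did. A fold threshold of 1 on the log2 scale left only MRPL33 as higher and MRPS6 as lower, beside 0.986 percent of all genes tested that were higher and 0.733 percent that were lower by this rule. Of the 35 called members, 32 changed by less than 0.5 on the log2 scale. For the 41 members that were not called, the 95% interval of the log2 fold change stayed within 0.25 of 0 in 34, and the widest interval, that of MRPS28, reached from -0.10 to 0.61.

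**Figure D2:**
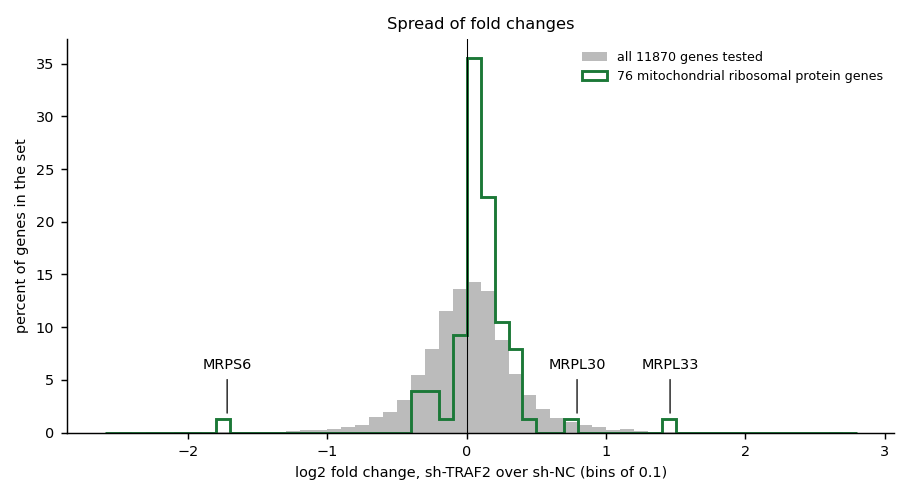
Percent of genes per bin of 0.1 in log2 fold change, for all 11870 genes tested (grey) and for the 76 members (green line). The members form a narrow peak just above 0, with a median of 0.09, and MRPS6, MRPL30 and MRPL33 stand alone outside it.

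MRPS6 encodes a small-subunit protein with a bacterial counterpart that sits on the platform of the subunit, and it carried the only large fall. Its FPKM was 19.4, 17.95 and 23.9 in the sh-NC libraries and 5.96, 7.86 and 4.81 in the sh-TRAF2 libraries. The highest sh-TRAF2 library lay far below the lowest sh-NC library. The log2 fold change was -1.72 (SE 0.169, adjusted p = 0.000128 in limma). A two-sided exact permutation test over the libraries gave p = 0.1, the smallest value that 3 against 3 allows. Groups that do not overlap can give no other value in that test. MRPS6 was known as a large fall before these fits, so its p-values and rank describe it and are no independent evidence. Among all 11870 genes tested, MRPS6 had the 6th lowest log2 fold change. Leaving out single libraries moved it between -1.90 and -1.55.

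Relative to its partners, MRPS6 moved from the middle of the list to its end. It ranked 48, 49 and 41 among the 77 members by FPKM in the sh-NC libraries and 73, 71 and 74 in the sh-TRAF2 libraries. On the log2 scale it lay -0.43, -0.61 and -0.17 from the median of the other members in sh-NC and -2.13, -1.81 and -2.50 in sh-TRAF2. Its fold change minus the median fold change of the other members was -1.81. MRPS6 was also among the least even members between libraries of a group: its coefficient of variation was 15.3% in sh-NC (rank 2 of the members) and 24.8% in sh-TRAF2 (rank 1), where the median member had 5.18% and 3.67%.

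MRPS6 lies on chromosome 21 at 34073224 to 34143034 on the plus strand (GRCh38, GENCODE 29), and its exons overlap those of SLC5A3, a myo-inositol transporter gene, on the same strand. The table's description texts for MRPS6 and SLC5A3 each name the other gene, whereas their gene numbers, 64968 and 6526, are those of the symbols. The gene lengths implied by the FPKM steps were 940 bases for MRPS6 and 11674 for SLC5A3, which sets the MRPS6 values on the short transcript. SLC5A3 had FPKM values of 1.43, 1.32 and 2.49 in sh-NC and 1.76, 2.24 and 1.84 in sh-TRAF2. Those groups overlapped, with a log2 fold change of 0.20 (SE 0.217, adjusted p = 0.488 in limma), which became 0.47 with adjusted p = 0.0280 without sh-NC replicate 3. How reads in the shared exons were assigned was not stated, and their part in the MRPS6 values was not tested.

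The MRPS6 coding sequence shares 7 bases with the target of one of the study's TRAF2 hairpins. In most other members, too, the longest protein-coding transcript shares 7 or more bases with that target. The MRPS6 stretch and the target are shown because MRPS6 was the member that fell most. Capitals mark the shared bases, which are bases 10 to 16 of the 21-base target; the MRPS6 stretch lies in the last of 3 exons of its longest protein-coding transcript (GENCODE 29), at chr21:34142564-34142593 of GRCh38, plus strand, with the first capital at coding base 353.
sh-TRAF2#1 target: cccttgcagATTCCACgccat
MRPS6: agaaaaattatATTCCACaaagaagaggaa
These letters, ATTCCAC, were singled out with earlier results of these data known, so the match supports nothing about MRPS6. Over the message strand of each gene's longest protein-coding transcript, 5 of 76 members held them (MRPS6, MRPS22, MRPL4, MRPL42 and MRPL45), or 6.58%, against 19.1% of 10846 tested genes with a transcript. Over all tested genes, carriers had a median log2 fold change of -0.09 and genes without the letters one of 0.03, with no test since the letters came from these data. A longer transcript is more likely to hold any given 7 letters, and these shares and medians took no account of transcript length. MRPS22, which shares 10 bases with the same target (bases 7 to 16), had a log2 fold change of -0.02 (adjusted p = 0.814 in limma). No member shared more than 10 bases with either hairpin target, and a part of the hairpin in any member's change was not tested.

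MRPL33, which encodes a small large-subunit protein with a bacterial counterpart, carried the largest rise. Its FPKM was 54.4, 44.6 and 48.1 in the sh-NC libraries and 129, 141 and 134 in the sh-TRAF2 libraries. Each sh-TRAF2 library was far above the highest control, and MRPL33 went from rank 14, 20 and 18 among the members to rank 1 in each sh-TRAF2 library. The log2 fold change was 1.46 (SE 0.0690, adjusted p = 4.18e-06 in limma), the 26th highest of all genes tested. The ratio of MRPS6 to MRPL33 in FPKM was 0.357, 0.402 and 0.498 in sh-NC and 0.0460, 0.0558 and 0.0359 in sh-TRAF2, so these 2 members diverged in every library.

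The MRPL33 gene spans 27771717 to 27988087 of chromosome 2 on the plus strand (GRCh38, GENCODE 29), and its exons overlap BABAM2, a subunit gene of the BRISC and BRCA1-A complexes, on the same strand. BABAM2 moved the other way: its mean FPKM went from 17.5 ± 0.839 to 14.6 ± 0.979 (SD, n = 3), and it fell by 0.26 on the log2 scale (adjusted p = 0.00976 in limma). The gene length implied by the FPKM steps was 513 bases for MRPL33, far less than its span. The part of shared reads in the MRPL33 values was not tested. The 250 bases before the MRPL33 start site, chr2:27771469-27771718 of GRCh38.p14 on the plus strand (RefSeq), are shown because this gene had the largest rise. Capitals mark the ETS-type letters CCGGAAG, at -8 to -2 from the start site.
MRPL33: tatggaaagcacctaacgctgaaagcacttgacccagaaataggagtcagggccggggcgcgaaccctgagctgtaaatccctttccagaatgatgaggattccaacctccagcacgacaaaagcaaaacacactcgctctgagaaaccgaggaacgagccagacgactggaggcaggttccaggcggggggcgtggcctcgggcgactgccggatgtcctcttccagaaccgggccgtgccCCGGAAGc

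MRPL30, another large-subunit gene with a bacterial counterpart, was the only other member past 0.5 on the log2 scale. Its FPKM was 12.5, 11.5 and 12.4 in sh-NC and 22.5, 20.5 and 20.3 in sh-TRAF2. The lowest sh-TRAF2 library lay well above the highest control, with a log2 fold change of 0.79 (SE 0.0573, adjusted p = 3.02e-05 in limma). MRPL30 lies on chromosome 2 at 99181079 to 99197626, plus strand. Its exons overlap those of AC079447.1 and AC092587.1 on the same strand, and the part of shared reads in its values was not tested. MITD1, a neighbouring gene that acts in cell division, stood at 19.4 ± 0.0945 and 19.4 ± 1.23 FPKM (SD, n = 3) in sh-NC and sh-TRAF2, and its log2 fold change was -0.01 with a 95% interval of -0.13 to 0.11.

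**Figure D3:**
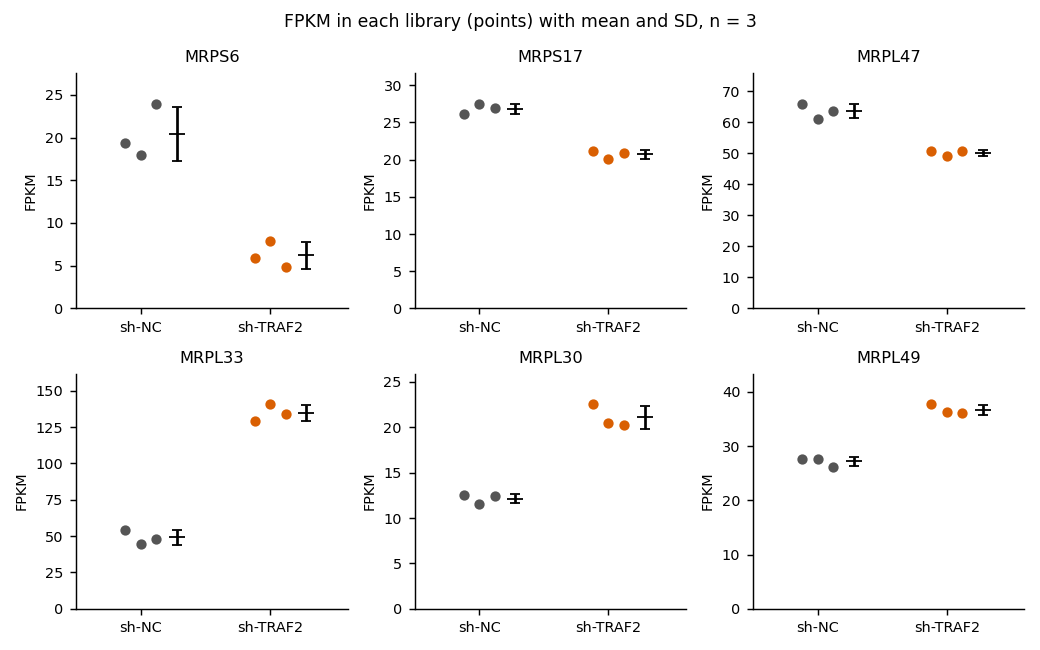
FPKM of 6 members in each library (points, sh-NC grey and sh-TRAF2 orange) with mean and SD (n = 3), on axes that start at 0. MRPS6, MRPS17 and MRPL47 were lower in all sh-TRAF2 libraries, and MRPL33, MRPL30 and MRPL49 were higher in all of them.

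Among large-subunit genes with a bacterial counterpart, 9 of 30 rose (30%) and 4 fell (13.3%), with a median log2 fold change of 0.09. This share of rises and those of the small-subunit classes below are near the 23.7 percent of all genes tested. The share of falls over all genes tested was 20.9 percent. After MRPL33 and MRPL30, the largest rises in this class were those of MRPL32 and MRPL9. MRPL32, whose precursor is cut by an inner-membrane protease before it joins the ribosome, had FPKM values of 68.3, 73.6 and 66.5 in sh-NC and 90.9, 91.1 and 86.6 in sh-TRAF2, a log2 fold change of 0.37 (SE 0.0454, adjusted p = 0.000389 in limma). MRPL9 rose from 63.4 ± 2.65 to 79.5 ± 3.97 FPKM (SD, n = 3), or 0.33 on the log2 scale (adjusted p = 0.000986 in limma). The groups did not overlap for either gene. Of their exon-overlapping neighbours on the opposite strand, PSMA2 at MRPL32 had a log2 fold change of 0.03 (adjusted p = 0.508) and OAZ3 at MRPL9 rose by 0.83 (adjusted p = 0.0074).

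The 4 falls in this class were MRPL47, MRPL35, MRPL18 and MRPL3. MRPL47, which sits near the tunnel through which the new chain leaves the large subunit, had FPKM values of 66.0, 61.2 and 63.8 in sh-NC and 50.9, 49.0 and 50.7 in sh-TRAF2. All sh-TRAF2 libraries were below the lowest control, and the log2 fold change was -0.34 (SE 0.0397, adjusted p = 0.000286 in limma). MRPL35 changed by -0.31 (adjusted p = 0.00315), MRPL18, a protein of the central protuberance, by -0.26 (adjusted p = 0.000532) and MRPL3 by -0.23 (adjusted p = 0.0110), again without overlap. ACTL6A, a chromatin remodeller subunit whose exons overlap MRPL47 on the opposite strand, also fell, by 0.20 on the log2 scale (adjusted p = 0.00260 in limma), and strand use in the counting was not stated.

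Among large-subunit genes found in mitochondria only, 9 of 19 rose (47.4%) and 1 fell (5.26%), against 23.7 and 20.9 percent of all genes tested. Their median log2 fold change was 0.11. Of 15 alternative settings, MRPL37 kept its higher call in 5, MRPL45 and MRPL52 in 7, MRPL46 in 9 and MRPL39 in 14. The calls of MRPL38, MRPL49, MRPL53 and MRPL58 held in all 15. MRPL49 had FPKM values of 27.7, 27.7 and 26.2 in sh-NC and 37.7, 36.3 and 36.0 in sh-TRAF2. Its libraries were tight within each group and far apart between them, with a log2 fold change of 0.43 (SE 0.0413, adjusted p = 0.000114 in limma). FAU, a cytosolic ribosomal protein gene on the opposite strand with overlapping exons, also rose (0.21, adjusted p = 0.00302 in limma), whereas SYVN1, placed likewise, had a log2 fold change of -0.11 (adjusted p = 0.188). MRPL38, which lies in the central protuberance, had 22.9, 22.6 and 20.5 FPKM against 26.0, 27.8 and 27.6 and rose by 0.30 on the log2 scale (adjusted p = 0.00253 in limma).

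MRPL40 was the 1 gene of this class called lower, and its libraries overlapped: the controls had 23.9, 23.3 and 27.5 FPKM, and the sh-TRAF2 libraries 19.4, 23.3 and 18.7. Its log2 fold change was -0.28 (SE 0.0923, adjusted p = 0.0362 in limma). This call was lost when control library 1 (adjusted p = 0.0566) or 3 (adjusted p = 0.108) was left out, or sh-TRAF2 library 1 (adjusted p = 0.108) or 3 (adjusted p = 0.116), at log2 fold changes from -0.31 to -0.21. With the replicate number as a block its adjusted p was 0.0549.

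The stalk of the large subunit recruits translation factors, and 2 of its 4 genes rose (50%, against 23.7 percent of all genes tested). MRPL12, the stalk protein that contacts the factors, had the highest mean level of all members over the 6 libraries. It had 102, 111 and 101 FPKM in the controls, then 124, 128 and 123 after knockdown, where MRPL33 was higher. The log2 fold change of MRPL12 was 0.26 (SE 0.0427, adjusted p = 0.00155 in limma). MRPL53 was even within each group, at 66.3, 67.3 and 67.4 FPKM in sh-NC, and rose to 79.5, 79.0 and 80.3, or 0.25 on the log2 scale (adjusted p = 0.000399 in limma). MRPL10, which anchors the stalk to the ribosome, had a log2 fold change of 0.15 (95% interval 0.02 to 0.29, adjusted p = 0.0669 in limma) and was called higher without sh-NC replicate 2 (0.21, adjusted p = 0.01) and with the replicate number as a block (adjusted p = 0.0291). MRPL54 had a log2 fold change of 0.06 (95% interval -0.05 to 0.17, adjusted p = 0.366).

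Among small-subunit genes with a bacterial counterpart, 5 of 15 tested rose (33.3%) and 2 fell (13.3%), with a median log2 fold change of 0.09. MRPS7, a protein of the subunit head, had FPKM values of 48.4, 50.6 and 49.9 in sh-NC and 60.4, 63.0 and 60.7 in sh-TRAF2, so that the groups were well separated (log2 fold change 0.31, SE 0.0365, adjusted p = 0.000320 in limma), and GGA3, which overlaps its exons on the opposite strand, had -0.13 (adjusted p = 0.141). MRPS12, which lies at the decoding site, rose from 28.2 ± 1.99 to 32.9 ± 0.499 FPKM (SD, n = 3), or 0.23 (adjusted p = 0.00969). MRPS15 rose from 53.1 ± 4.59 to 62.4 ± 3.55 FPKM, or 0.24 (adjusted p = 0.0205), a call lost without sh-NC replicate 3 (0.18, adjusted p = 0.0589) or sh-TRAF2 replicate 2 (0.19, adjusted p = 0.0726).

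MRPS17 was the other fall of this class beside MRPS6. It had FPKM values of 26.1, 27.5 and 26.9 in sh-NC and 21.1, 20.1 and 20.9 in sh-TRAF2, with no overlap and a log2 fold change of -0.37 (SE 0.0420, adjusted p = 0.000245 in limma). NIPSNAP2, a mitochondrial matrix protein gene that shares exon sequence with MRPS17 on the same strand, fell as well, from 28.8 ± 1.81 to 19.6 ± 1.53 FPKM (SD, n = 3; log2 fold change -0.56, adjusted p = 0.000358 in limma). The part of shared reads in the MRPS17 value was not tested.

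Of the small-subunit genes found in mitochondria only, 3 of 9 rose (33.3%) and 0 fell, with a median log2 fold change of 0.02. No gene of the class was lower at an unadjusted p under 0.05 in limma (count 0), nor in limma-voom on recovered reads. MRPS23 had the largest rise in this class, from 12.5 ± 0.825 to 14.3 ± 0.493 FPKM (SD, n = 3; 0.20 on the log2 scale, adjusted p = 0.0243). That call was lost without sh-NC replicate 1 (0.19, adjusted p = 0.0751), without sh-NC replicate 3 (0.16, adjusted p = 0.0779) or sh-TRAF2 replicate 2 (0.17, adjusted p = 0.0813).

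MRPS30 and MRPS18A carry small-subunit symbols, but structures of the ribosome place their proteins in the large subunit, and both rose. MRPS30 had FPKM values of 41.5, 47.4 and 42.6 in sh-NC and 57.9, 54.4 and 50.8 in sh-TRAF2 (log2 fold change 0.31, SE 0.0642, adjusted p = 0.00515 in limma). MRPS18A had 16.6, 16.9 and 15.2 against 20.03, 20.4 and 19.9 (0.31, SE 0.0515, adjusted p = 0.00177 in limma). These were the largest rises under an MRPS symbol, and neither gene's groups overlapped. Of the paralogues of MRPS18A, MRPS18B in the small subunit had a log2 fold change of 0.08 (95% interval -0.01 to 0.18, adjusted p = 0.145 in limma), and MRPS18C, whose symbol ends in C and so was not among the 77, rose from 30.7 ± 1.77 to 39.8 ± 1.77 FPKM (0.38, adjusted p = 0.000839).

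By symbol, 10 of 27 MRPS genes rose (37.0%) and 2 fell (7.41%), and 18 of 49 MRPL genes rose (36.7%) and 5 fell (10.2%). The shares over all genes tested were 23.7 percent higher and 20.9 percent lower. MRPS36, in none of the classes above, was counted by its symbol (log2 fold change 0.001, adjusted p = 0.984 in limma). The median log2 fold change was 0.08 for MRPS and 0.09 for MRPL, a difference of -0.007. That difference ran from -0.033 without sh-NC replicate 3 to 0.016 without sh-NC replicate 1, and was -0.023 with MRPS30 and MRPS18A counted as large-subunit genes, so its sign depended on single libraries. The number of MRPL genes called higher was 11 without sh-NC replicate 1 and 10 without sh-TRAF2 replicate 3, and that of MRPS genes was 6 without sh-NC replicate 3.

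The subunits were also compared by their sums. The summed FPKM of MRPS genes was 719, 739 and 715 in sh-NC and 768, 773 and 747 in sh-TRAF2. That of MRPL genes was 1795, 1845 and 1770 in sh-NC and 2011, 2046 and 1997 in sh-TRAF2. Both sums were higher in each sh-TRAF2 library, and the MRPS sum over the MRPL sum was 0.400, 0.400 and 0.404 in the controls and 0.382, 0.378 and 0.374 after knockdown. With MRPS6 and MRPL33 left out of the sums, a choice made after seeing the data, the ratio was 0.402, 0.400 and 0.401 in the controls and 0.405, 0.401 and 0.398 after knockdown, and the groups overlapped. The shift in the ratio thus rested on these 2 genes. All members together made up 0.711% to 0.737% of the FPKM total in sh-NC and 0.778% to 0.797% in sh-TRAF2, and without those 2 genes 0.691% to 0.719% and 0.739% to 0.755%.

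**Figure D4:**
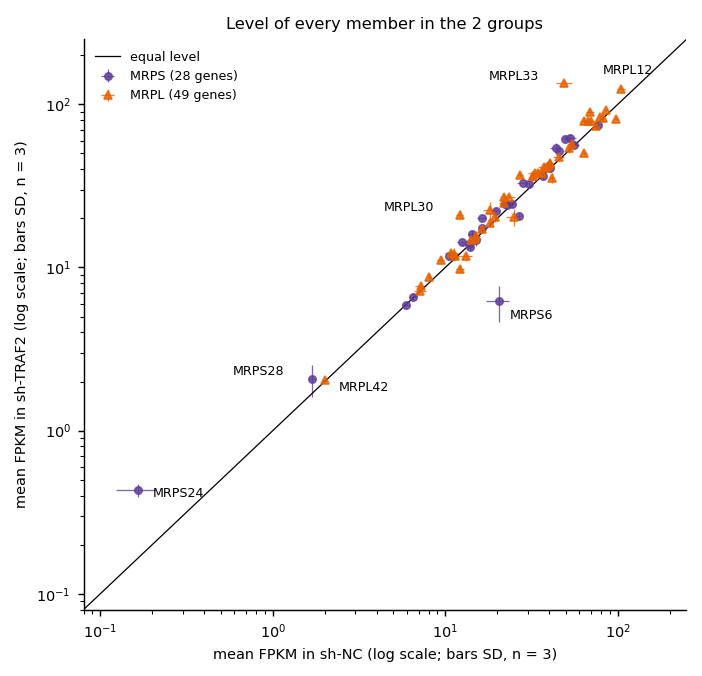
Mean FPKM of all 77 members in sh-NC (horizontal) and sh-TRAF2 (vertical), both on log axes, with SD bars (n = 3) and the line of equal level. Most members lie close to the line. MRPS6 lies below it, MRPL33 and MRPL30 lie above it, and MRPS24 is at the lower end.

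Levels of the members spread widely, although their proteins are parts of 1 particle. On the FPKM scale, which is per length, the median member had a mean level of 24.6 over the 6 libraries, against 7.67 for all genes tested, and 69 of 77 members were above 10. MRPL12 was highest at 115 FPKM and MRPS16 was the highest MRPS gene at 75.6. MRPS16 had a log2 fold change of -0.04 (95% interval -0.12 to 0.04, adjusted p = 0.351 in limma), and -0.09 with adjusted p = 0.0484 under quantile normalization. The lowest members were MRPS24 at 0.299, MRPS28 at 1.88 and MRPL42 at 2.03 FPKM.

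MRPS24, an essential part of the small subunit, was the only member under the expression minimum. Its FPKM was 0.126, 0.209 and 0.161 in sh-NC and 0.474, 0.393 and 0.427 in sh-TRAF2, at 3 to 11 reads per library, and it was not tested. The gene lies inside the readthrough gene URGCP-MRPS24 on the same strand, and the table's description text for MRPS24 names that readthrough. For MRPS28, too, the description text names another gene, tumor protein D52. In all, 16 of the 77 members share exon sequence with another gene on the same strand and 28 with one on the opposite strand (40 with either), so that the low levels of MRPS24 and MRPS28 cannot be told apart from reads assigned elsewhere. MRPL42 had a log2 fold change of 0.03 (95% interval -0.15 to 0.22).

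Promoters of the members were searched for short sequence motifs, on both strands, in RefSeq windows from 250 bases before to 50 bases after the start site (GRCh38.p14). A promoter was found for 69 members, 68 of them tested. The letters AAGATGGC, part of the motif of the factor YY1, occurred in 19 of 68 members (27.9%), against 5.90% of 9785 tested genes with a promoter. The ETS-type letters CCGGAAG, bound by factors such as GABPA, occurred in 28 members (41.2%) against 20.7%. The other motifs were near the background: the NRF1 motif in 11.8% against 12.4%, GGGCGG (SP1) in 61.8% against 69.8%, CACGTG (E-box) in 8.82% against 10.5%, and TATAAA in 4.41% against 5.55%. The median GC content was 60.3% for members and 65% for all tested promoters, and no account was taken of it.

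The YY1-type letters mostly lay just after the start site. In 14 of the 19 members they began between -10 and 50 on the strand of the gene, and over all tested genes 329 of 577 carriers had them in that span on the strand of the gene. Windows of 26 bases are shown for the members described above that carry them there, to show the bases around the motif. The motif is in capitals and is identical by selection. Its letters include ATG, and where they lie relative to the start of translation was not examined.
MRPS30: tcgcgggcaAAGATGGCggcggccag
MRPS18A: aggtttttgAAGATGGCggccctcaa
MRPS7: tggccagccAAGATGGCtgcccccgc
MRPL38: gccggagggAAGATGGCggcgccctg
MRPS18B: gcgtacgtcAAGATGGCggcgtctgt
MRPL42: gattgaaacAAGATGGCgggttcgtg
In GRCh38.p14 these are chr5:44808951-44808976 (MRPS30, plus strand, motif from 14), chr6:43687766-43687791 (MRPS18A, minus strand, from 10), chr17:75261889-75261914 (MRPS7, plus strand, from 20), chr17:75904862-75904887 (MRPL38, minus strand, from 7), chr6:30617854-30617879 (MRPS18B, plus strand, from 24) and chr12:93467513-93467538 (MRPL42, plus strand, from 9).

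Of the 19 members with these letters, 11 were called higher, 1 lower and 7 neither, with a median log2 fold change of 0.18. Of the 49 without them, 15 were higher, 5 lower and 29 neither, with a median of 0.07. The shares over all genes tested were 23.7 percent higher and 20.9 percent lower. Calls were not counted over all tested genes with these letters. MRPS30, MRPS18A, MRPS7 and MRPL38 were among the rises, while MRPS18B and MRPL42 were not called. MRPL33, MRPL30 and MRPS6, the members that moved most, did not hold the letters in these windows. For the ETS-type letters the medians were 0.08 with and 0.09 without. These counts are a description of the chosen windows, and a letter match is not a binding site.

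Ribosomal proteins under other symbols also rose more often than they fell: 4 of 6 tested rose (66.7%) and 0 fell in limma. The shares over all genes tested were 23.7 percent higher and 20.9 percent lower. Of these proteins, 0 were lower at an unadjusted p under 0.05 and in limma-voom on recovered reads. Beside MRPS18C the rises were GADD45GIP1 (0.24 on the log2 scale, adjusted p = 0.00183), AURKAIP1 (0.23, adjusted p = 0.00457) and DAP3, a GTP-binding small-subunit protein (0.17, adjusted p = 0.00771). PTCD3 had a log2 fold change of 0.10 (95% interval -0.04 to 0.24) and CHCHD1 of 0.04 (-0.07 to 0.16).

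Of 44 genes for assembly of the ribosome and processing of its RNA, 13 were higher (29.5%, near the 23.7 percent of all genes tested) and 1 was lower (2.27%, against 20.9 percent). With no filter on low values 8 were higher, and without sh-NC replicate 1 or sh-TRAF2 replicate 2 the count was 7. RPUSD4, which modifies the large ribosomal RNA, had the smallest adjusted p: its FPKM was 3.06, 3.76 and 2.76 in sh-NC and 8.34, 8.75 and 7.99 in sh-TRAF2, a log2 fold change of 1.37 (SE 0.105, adjusted p = 3.96e-05 in limma). PNPT1, an RNA-degrading enzyme of mitochondria, rose by 0.45 (adjusted p = 0.000525) and NOA1, a GTPase of small-subunit assembly, by 0.24 (adjusted p = 0.00481). Of 21 translation factors and message-binding proteins, 4 were higher (19.0%) and 2 lower (9.52%), neither share above that of all genes tested. PDF, which removes the formyl group from new chains, rose from 2.04 ± 0.397 to 3.87 ± 0.0725 FPKM (0.90, adjusted p = 0.000647). SLIRP, which stabilises mitochondrial messages, rose by 0.14 (adjusted p = 0.0134), a call lost in limma-voom on recovered reads (adjusted p = 0.0549) and with quantile normalization (0.05, adjusted p = 0.22). COX18, which inserts a cytochrome oxidase subunit, fell by 0.30 (adjusted p = 0.0267), a call lost with no filter on low values (adjusted p = 0.0721) and when sh-NC library 2 (adjusted p = 0.0766) or 3 (0.0646), or sh-TRAF2 library 1 (0.0837) or 3 (0.0649), was left out.

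The messages that the mitochondrial ribosome translates went the other way. Of 13 protein-coding genes of mitochondrial DNA, 12 were lower (92.3%, against 20.9 percent of all genes tested) and 0 were higher in limma. At an unadjusted p under 0.05 or in limma-voom on recovered reads 0 were higher, and their median log2 fold change was -0.29. ATP6, a subunit of ATP synthase, had FPKM values of 1762, 1712 and 1763 in sh-NC and 1390, 1352 and 1377 in sh-TRAF2, a log2 fold change of -0.35 (SE 0.0256, adjusted p = 3.36e-05). COX3 and ND5 changed by -0.34 (adjusted p = 0.000204) and -0.28 (adjusted p = 0.000244), and ND6, on the other strand of mitochondrial DNA, had a log2 fold change of -0.30 (adjusted p = 0.0525). Their levels are among the highest of the table and are read from 1 genome in common transcripts, so the 13 genes are not independent. With quantile normalization 8 were lower and COX3 changed by -0.08 (adjusted p = 0.0581).

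Of 13 tested regulators of mitochondrial gene expression, 0 were higher and 4 lower (30.8%) in limma. The shares over all genes tested were 23.7 percent higher and 20.9 percent lower. Of the regulators, 1 was higher at an unadjusted p under 0.05 and 1 was higher in limma-voom on recovered reads. NRF1 fell from 9.50 ± 0.857 to 6.73 ± 0.982 FPKM (-0.50, adjusted p = 0.00692), GABPB2, a partner of GABPA, from 1.43 ± 0.0993 to 0.998 ± 0.0753 (-0.48, adjusted p = 0.0105), and CREB1 changed by -0.23 (adjusted p = 0.0131). The CREB1 call was lost without sh-NC replicate 1 (adjusted p = 0.0513) and sh-TRAF2 replicate 3 (0.05004). Of 16 proteases and chaperones of mitochondria, 4 were higher (25%, near that of all genes tested) and 2 lower (12.5%). HTRA2, a protease of the intermembrane space, rose by 0.62 (adjusted p = 0.000846) and PHB1, a prohibitin, by 0.50 (adjusted p = 0.000191), whereas HSPE1, a matrix chaperonin subunit, fell by 0.42 (adjusted p = 0.000373).

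**Figure D5:**
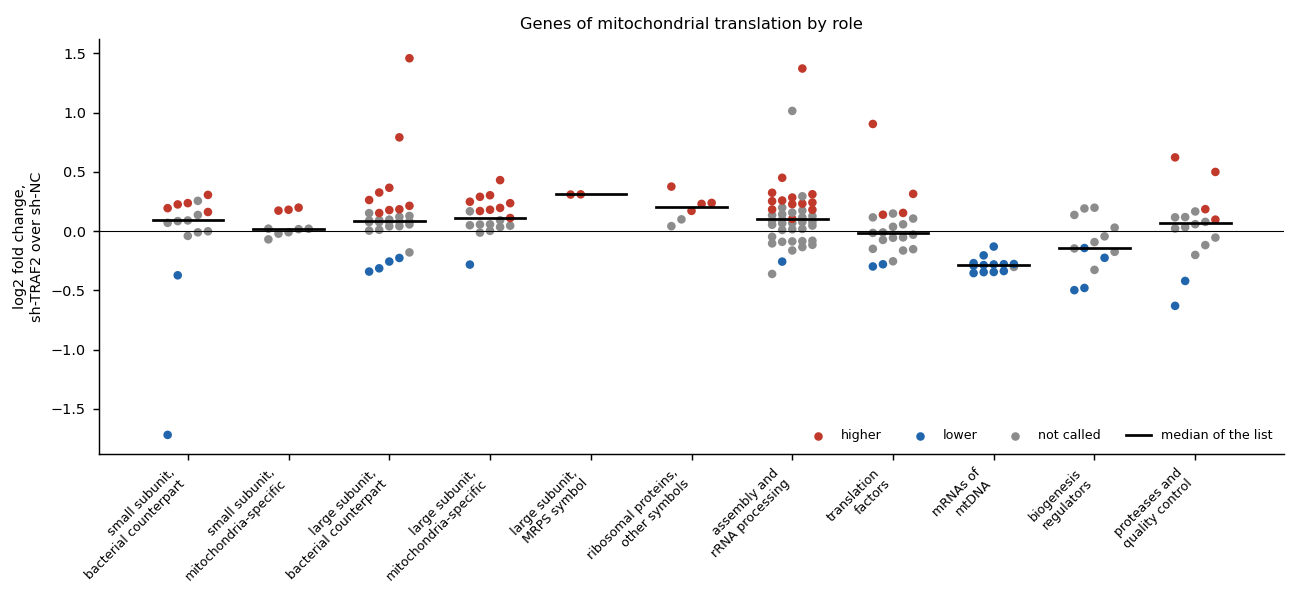
Log2 fold change of each tested gene, by role (horizontal axis), coloured by call in limma, with a bar at the median of each list; MRPS36, in no role list, is left out. Ribosomal protein lists lie slightly above 0 with MRPS6 and MRPL33 as the outer points, and the 13 mitochondrial DNA messages all lie below 0 around -0.29.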

How the data were processed

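RNA-seq libraries of U251 cells (sh-NC and sh-TRAF2, 3 each) were grouped by the labels. The authors deposited FPKM per gene. HISAT2, HTSeq, DESeq2 and R 3.2.0 are named in the submitters' processing notes; genome build, annotation and strand use in counting are not given in the sources used here. The table holds no columns of the authors' own comparisons, and 0 per-sample columns were unused. Values of 100% of genes came out as whole reads (tolerance 1e-06), at 33999558 to 36823562 per library; replicates differed by more than counting noise.

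log2(FPKM + 0.1) was tested with limma 3.58.1 (R 4.3.3; trend, two-sided, Benjamini-Hochberg over 11870 genes of mean FPKM at least 0.5), after the script was tested on simulated data. Fold changes are on that scale and understate low genes. The members, lists, motifs and hairpin letters were chosen with earlier results of these data known. Genes were named by a rule: TRAF2, MRPS6 and SLC5A3; of MRPS and of MRPL the 6 largest called rises and falls and the highest and lowest level; MRPS30, MRPS18A, MRPS18B; the stalk genes; members under the minimum; other-symbol ribosomal proteins; and 3 genes of smallest adjusted p per other list. Overlapping neighbours, MRPS22 and MRPS28 were added after their values were seen. Positions and transcripts came from GENCODE 29 (GRCh38) and promoters from RefSeq (GRCh38.p14), matched by gene number (NCBI). Alternatives were another pseudocount, filter, scaling or model, reads in place of FPKM, a replicate block and leaving out each library.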

Additional observations from a re-analysis of the deposited data

How the results depend on the processing

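Of the 35 called members, 21 were called under all 15 alternatives, 14 lost the call under at least 1 and 0 reversed; 9 of the 41 uncalled members gained a call under at least 1. Members higher ranged from 18 to 31 and lower from 6 to 7 when 1 library was left out; MRPL genes higher from 10 to 21, MRPS genes higher from 6 to 10, the MRPS minus MRPL difference from -0.033 to 0.016, translation factors higher from 2 to 4 and lower from 0 to 2, assembly genes higher from 7 to 16 and lower from 0 to 2, and regulators higher from 0 to 1. MRPL genes higher were 11 without the trend and 11 with no filter; translation factors lower were 1, 0 and 1 without the trend, with no filter and with quantile normalization. Assembly genes were 8 higher and 0 lower with no filter, and 2 were lower both with recovered reads (limma-voom) and with quantile normalization. Quantile normalization also gave 4 lower proteases and a member median of 0.054, and recovered reads 1 higher regulator. Over all genes, calls past the fold threshold were 239 higher and 174 lower with recovered reads, which include genes of lower FPKM, and 46 and 41 with a pseudocount of 1, which shrinks low genes; other causes were not tested. MRPS6 and MRPL33 left out of the sums, chosen after seeing the data, moved the sh-TRAF2 minus sh-NC difference of the MRPS over MRPL ratio from -0.0237 to 0.000461. With no filter the calls of MRPS15, MRPS23 and MRPL40 were lost (adjusted p = 0.0638, 0.0513 and 0.103), and without the trend those of MRPS15 and MRPL40 (0.0533 and 0.0753). MRPS30 and MRPS18A moved to the large subunit gave a difference of -0.023. With the replicate number as a block, 29 members were higher and 6 lower and 1 regulator was higher. Deviations of same-numbered libraries correlated at -0.081, 0.072 and 0.073, and those of other pairs from -0.141 to 0.067. Taken from means of 3 libraries, these values cannot show whether same-numbered libraries were handled together. No library pair was taken as paired. The 3 libraries per group and the reads assigned between overlapping genes, which touch 40 members, limit these calls.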
